A study of Homo sapiens with 3 samples.

Results

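The genes described here are 43 genes of programmed cell death: the BCL2 family, the proteins that mitochondria release when a cell dies, the caspases and their inhibitors, the death receptors with their adaptors, and 2 genes of necroptosis. They were chosen by name, with earlier results of these data known. A probe set was taken for a gene where the annotation of the array listed that gene's symbol. On the Affymetrix U133 Plus 2.0 array, 131 of 54675 probe sets listed a member. Of these, 128 listed a member alone and 3 listed it with other genes. A total of 40 of the 43 genes had a probe set of their own, out of 19775 genes that did so on the array. BBC3 was listed only together with other genes, and the signals of BIRC3 and RIPK1 were not analysed here because no probe set was listed for them. By their best known roles, 24 genes were counted as pro-apoptotic, 11 as anti-apoptotic and 8 as having a mixed or other role.

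Apoptosis is run by caspases, proteases that are made as inactive precursors. In the intrinsic pathway, BAX and BAK1 open the outer membrane of mitochondria, cytochrome c leaves and joins APAF1, and the complex activates CASP9. Survival proteins such as BCL2 and MCL1 hold BAX and BAK1 back, and BH3-only proteins oppose the survival proteins. In the extrinsic pathway, ligands such as the FAS ligand bind death receptors at the cell surface, and the adaptor FADD brings CASP8 to the receptor. Much of this control acts on proteins that are already present, so the mRNA measured here gives which parts are transcribed and not whether the pathway is active.

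Total RNA came from 3 cultures of HEK-293T, a human embryonic kidney line grown in DMEM with 10% fetal bovine serum and given no treatment. Per the labels, all 3 carried an inserted temperature-sensitive gene for the SV40 T-antigen, so no culture without it was compared. The study ran the arrays to learn which genes the line transcribes before knockdown reagents were designed. The cultures were a well seeded with 375000 cells and harvested at 48 h (low-seeded 48 h), a well seeded with 1000000 cells and harvested at 24 h, and a well seeded with 750000 cells and harvested at 48 h (high-seeded 48 h). The values of a probe set are given below in that order, as the deposited MAS5 signal, an intensity on a linear scale that was set to the same trimmed mean on every array. Means are followed by the SD over the 3 arrays, which holds the differences in seeding and time as well as technical error. Signals of different probe sets were not set against each other, because probe sets differ in how brightly they report the same amount of RNA.

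Detection was judged against 362 reference probe sets, chosen for genes that other tissues use and kidney cells do not. A probe set counted as above background when each of the 3 arrays gave it a signal over the reference's 95th percentile. The threshold was 99.3 on the array of the low-seeded 48 h culture, 92.1 on that of the 24 h culture and 121 on that of the high-seeded 48 h culture. For a gene, 1 such probe set of its own was enough. The label of the cells was checked against marker genes, which like the members were listed with earlier results of these data known. Of 11 measured markers of kidney lineage and epithelium, 8 (72.7%) were above background, against 51.4% of all genes. The other 3 were PAX2 (mean signal 120 ± 31.1), LHX1 (36.4 ± 25.9) and EPCAM (126 ± 12.6). Among the 8, SALL1 and SIX2 passed by 2 of 2 probe sets, EYA1, WT1 and CDH1 by 1 of 2 each, and PAX8 by 1 of 8. KRT8 and KRT18 had 1 probe set each, of a type that can match several transcripts. None of 5 leukocyte markers and none of 4 endothelial markers was above background, and of 5 fibroblast markers COL1A1 alone was (502 ± 62.9). The summed signal of the leukocyte markers ranged from 132 to 196 over the arrays, that of the endothelial markers from 97.0 to 239 and that of the fibroblast markers from 566 to 788. In RNA of a whole culture, fewer cells that transcribe a gene and less RNA per cell cannot be told apart.

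Of the 40 genes measured, 29 (72.5%) were above background on all 3 arrays, against 10156 of 19775 genes (51.4%) on the array as a whole. Pro-apoptotic genes were above background in 17 of 23 cases (73.9%) and anti-apoptotic genes in 8 of 10 (80%), so both sides of the pathway were represented at shares that differed by less than 1 gene of the smaller set. Among the genes of mixed or other role, 4 of 7 (57.1%) were above background. The 11 genes not above background were BCL2 and BCL2A1 on the anti-apoptotic side, BOK, BIK, BMF, CASP10, FASLG and TNFRSF10A on the pro-apoptotic side, and CASP1, CASP4 and MLKL in the mixed group. Of the 29 genes above background, 24 had a brightest probe set over 3 times the threshold on every array.

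The members had a median of 3 probe sets per gene, and genes on the whole array a median of 2, which gave a member more chances to pass. Counted by probe set, 77 of 128 member probe sets (60.2%) were above background, against 18317 of 41097 (44.6%) on the array. By this count the shares were 44 of 67 pro-apoptotic probe sets (65.7%) and 25 of 43 anti-apoptotic probe sets (58.1%), so the order of the sides was opposite to that by gene. Some probe sets are marked by the maker as able to match several transcripts, and without them 18 of 33 members (54.5%) were above background, against 44.2% of all genes. That count included 9 of 18 pro-apoptotic genes (50%) and 6 of 9 anti-apoptotic genes (66.7%). Under a rule that more than 50% of the probe sets of a gene must pass, 4 of 10 anti-apoptotic genes (40%) and 16 of 23 pro-apoptotic genes (69.6%) were above background, against 38.4% of all genes, so the order of the sides depended on this choice. On single arrays, 31 of 40 members passed the threshold in the low-seeded 48 h culture (56.4% of all genes), 32 in the 24 h culture (58.1%) and 30 in the high-seeded 48 h culture (55%). On each of the 3 arrays, 9 of 10 anti-apoptotic genes passed. The count over all 3 arrays was therefore lower than that of a single array by 1 to 3 members.

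**Figure D1:**
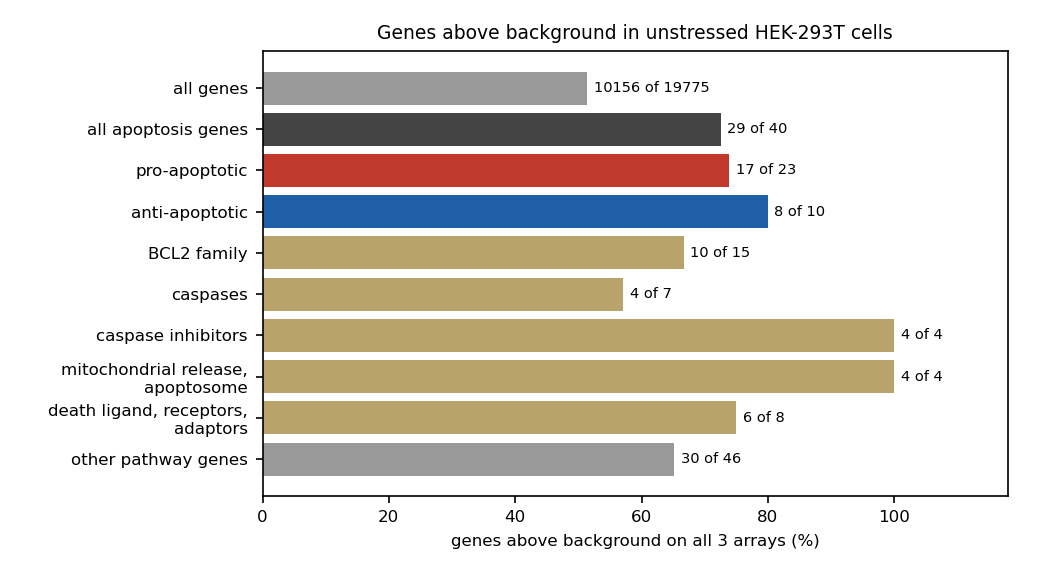
Share of genes above background on all 3 arrays (horizontal axis, percent) for all genes, all apoptosis genes, each side, groups of roles and the wider list of other pathway genes, with the counts beside the bars. The bar for all apoptosis genes ends at 72.5% and that for all genes at 51.4%.

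The BCL2 family divides into survival members, effectors that open mitochondria, and BH3-only members that sense damage. Of its 15 genes with a probe set of their own, 10 were above background. Among the survival members, MCL1, whose protein is short-lived and must be made continuously, had signals of 4113, 4285 and 4817 on its brightest probe set (4405 ± 367). The 3 arrays lay within a narrow range on this probe set, and 5 of 6 probe sets for MCL1 were above background. The next brightest had 3198, 3577 and 2786, so it was highest in the 24 h culture and not in the high-seeded 48 h culture.

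BCL2, the founding member of the family, was not above background by any of its 4 probe sets. Its brightest had signals of 84.5, 111 and 168 (121 ± 42.9). It passed the threshold on 2 of 3 arrays and fell short in the low-seeded 48 h culture, and the next probe set (101.5, 84.5 and 167) fell short in the 24 h culture instead. BCL2 therefore lay at the edge of detection.

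BCL2L1, which encodes BCL-XL, was above background by 1 of 4 probe sets, with signals of 162, 279 and 139 (193 ± 75.3). The lowest of these was 1.15 times the threshold, so its call was also close to the edge. BCL2L2, which encodes BCL-W, had signals of 330, 447 and 374 (384 ± 58.9) on the probe set above background, and its other own probe set was not above it. BCL2A1, a survival gene best known from blood cells, had signals of 25.3, 29.0 and 31.3 (28.5 ± 3.03), far below the threshold on every array.

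The effectors were divided as well. BAX had signals of 1064, 1155 and 1584 (1268 ± 278), and both of its probe sets were above background. BAK1, its partner with an overlapping function, had 526, 357 and 500 (461 ± 90.8) on its only probe set. BOK, a relative of BAX and BAK1, had 18.4, 15.8 and 15.6 (16.6 ± 1.57) and was below the threshold on all 3 arrays by both of its probe sets. The HEK-293T cultures thus held transcripts of BAX and BAK1, and those of BOK were not detectable with these probe sets.

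Of the 6 BH3-only genes with a probe set of their own, 4 were above background. BID, which links death receptors to mitochondria once CASP8 has cut it, had signals of 2603, 2158 and 2399 (2386 ± 223), and all 3 of its probe sets were above background. BCL2L11, which encodes BIM, had 870, 786 and 933 (863 ± 73.5), with 6 of 7 probe sets above background. BAD, which phosphorylation keeps inactive in cells supplied with growth factors, had 692, 530 and 825 (682 ± 148).

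HRK, a BH3-only gene best known from neurons, was closer to the threshold at 131, 144 and 195 (157 ± 33.7), with 2 of 5 probe sets above background. BIK had signals of 101, 16.5 and 97.2 (71.7 ± 47.8), and passed the threshold in the low-seeded 48 h culture alone. BMF had 69.3, 110 and 89.5 (89.7 ± 20.5), and passed in the 24 h culture alone. BIK and BMF each had 1 probe set, so a single probe set decided their calls. BCL2L13, a mitochondrial outer membrane protein counted here as mixed, had signals of 1215, 1229 and 1007 (1150 ± 124).

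**Figure D2:**
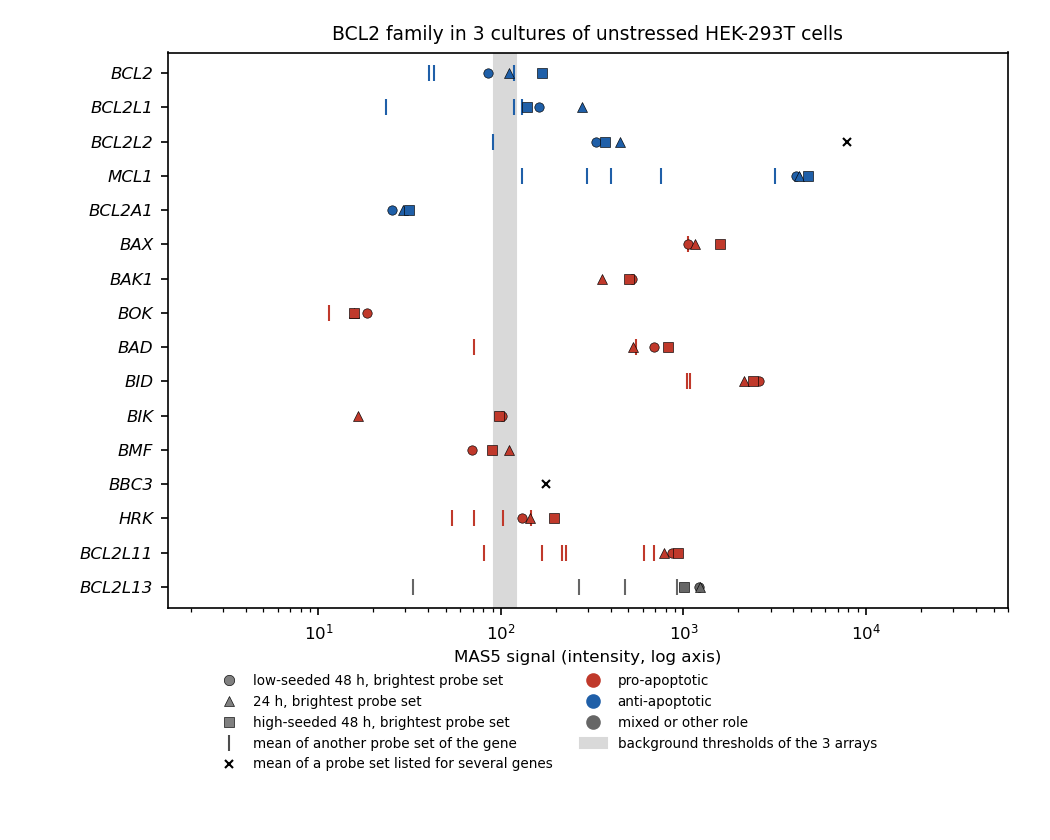
MAS5 signal (logarithmic axis) of the brightest probe set of each BCL2 family gene, 1 symbol per culture, coloured by side, with ticks for the means of the gene's other probe sets, crosses for the means of probe sets listed for several genes, and the range of the 3 thresholds shaded grey. The symbols of BCL2 lie across the shaded band (84.5 to 168), while those of BOK and BCL2A1 lie below it.

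The proteins that act after mitochondria open were all represented. The 4 genes CYCS (cytochrome c), APAF1, DIABLO and AIFM1 were above background. CYCS, which also carries electrons in respiration, had signals of 24500, 24319 and 25654 (24824 ± 724), and all 3 of its probe sets were above background. Near-identical processed pseudogenes of CYCS exist, and their transcripts were not told apart. DIABLO, which frees caspases from their inhibitors, had 5273, 5486 and 5405 (5388 ± 108). AIFM1, a flavoprotein of the space between the mitochondrial membranes, had 5417, 5147 and 5714 (5426 ± 284). APAF1, the scaffold of the apoptosome, had 492, 471 and 380 (448 ± 59.8), with 2 of 3 probe sets above background.

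Of the 5 apoptotic caspases among the members, 4 were above background. CASP2, an initiator linked to DNA damage and mitotic faults, had signals of 3601, 3319 and 3467 (3462 ± 141), and all 7 of its probe sets were above background. CASP9, the initiator of the intrinsic pathway, had 651, 638 and 619 (636 ± 16.4). CASP8, the initiator of the extrinsic pathway, had 425, 379 and 350 (385 ± 38.2). Without probe sets that can match several transcripts, neither CASP8 nor CASP9 was above background. CASP6, an executioner that cuts nuclear lamins, had 1376, 1381 and 1047 (1268 ± 191).

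CASP10, a relative of CASP8, was not above background by any of 4 probe sets, and its brightest had signals of 69.2, 54.9 and 100.1 (74.7 ± 23.1). Neither inflammatory caspase was above background. CASP1, which matures interleukin-1β, had signals of 98.0, 147 and 31.5 (92.1 ± 57.9), above the threshold in the 24 h culture alone. CASP4, which senses bacterial lipopolysaccharide inside the cell, had 63.0, 34.7 and 88.5 (62.1 ± 26.9).

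The 4 caspase inhibitors measured were above background. XIAP, which binds active caspases directly, had signals of 1874, 2420 and 2332 (2209 ± 293), and all 7 of its probe sets were above background. BIRC2, a ubiquitin ligase of the TNF receptor complex, had 3325, 3739 and 3267 (3444 ± 257). BIRC6, a very large ubiquitin-conjugating inhibitor, had 1452, 1141 and 1342 (1311 ± 158).

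CFLAR, which encodes the FLIP proteins that compete with CASP8 at death receptors, had signals of 674, 739 and 757 (723 ± 43.6) on its brightest probe set. Of its 14 probe sets 7 were above background, all of a type that can match several transcripts. The mean signals of those above ranged from 183 to 723, and those of the others from 10.4 to 111. CFLAR is spliced into several forms, and which of them each probe set reads was not tested.

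On the extrinsic side, 6 of 8 genes for a ligand, a receptor or an adaptor were above background. FASLG, which encodes the FAS ligand and is best known from activated T cells, had signals of 72.5, 71.5 and 15.6 (53.2 ± 32.6), below the threshold on every array. Its receptor FAS had 358, 461 and 396 (405 ± 52.1), with 4 of 5 probe sets above background. The cultures thus held transcripts of the receptor and of FADD, while those of the ligand were not detectable. The 4 probe sets of FAS above background are of the types that can match several transcripts, and FAS was not above background without them.

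The receptors for the ligand TRAIL divided. TNFRSF10B had signals of 1126, 1659 and 1139 (1308 ± 304), with 3 of 4 probe sets above background. TNFRSF10A, the other receptor with a working death domain, had 50.4, 82.2 and 49.7 (60.8 ± 18.6) and was not above background by any of its 3 probe sets. TNFRSF10D, a decoy that binds TRAIL without passing on a full death signal, had 249, 233 and 335 (272 ± 54.8). Its other probe set was not above background.

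TNFRSF1A, the TNF receptor that can signal either inflammation or death, had signals of 430, 579 and 367 (459 ± 109) on its only probe set. Its adaptor TRADD had 562, 534 and 510 (535 ± 26.1). FADD, the adaptor shared by death receptors, had 2592, 2720 and 2671 (2661 ± 64.4). The FADD signals lay within a narrow range, and the receptor and both adaptors were thus transcribed in all 3 cultures.

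Necroptosis, a lytic death used when caspases are blocked, needs the kinase RIPK3 and the pore-forming protein MLKL. RIPK3 had signals of 146, 130 and 221 (166 ± 48.9) on 1 probe set, and the lowest was 1.41 times the threshold. MLKL, which RIPK3 phosphorylates, had 20.5, 34.1 and 21.6 (25.4 ± 7.57) on 1 probe set, below the threshold on every array.

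**Figure D3:**
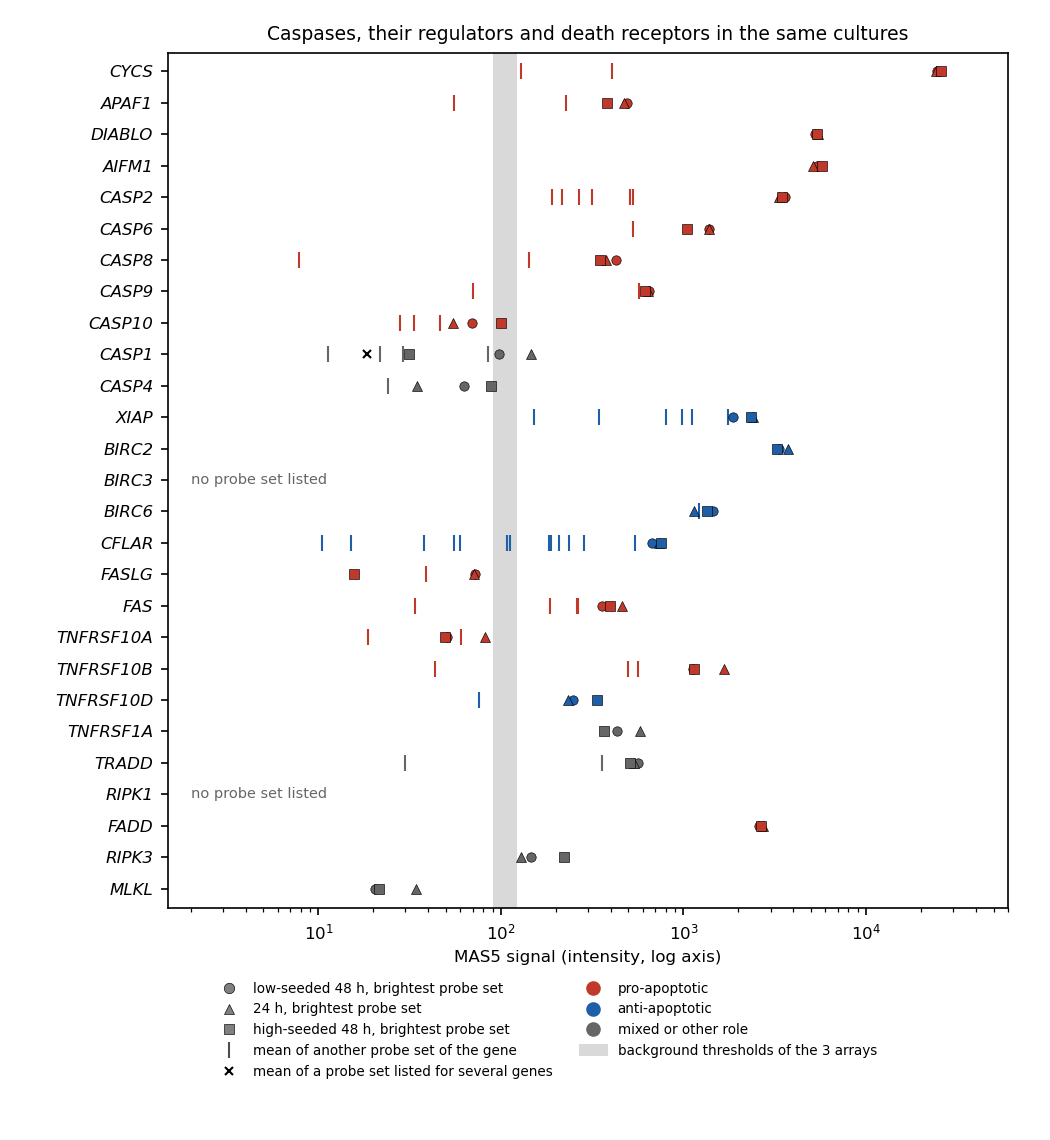
MAS5 signal (logarithmic axis) of the brightest probe set of each of the other apoptosis genes, drawn as for the BCL2 family: symbols for the 3 cultures, ticks for the means of the gene's other probe sets, a cross for a probe set listed for several genes, and the range of the thresholds shaded grey. The symbols of MLKL lie below the shaded band (20.5 to 34.1) and the 14 probe sets of CFLAR lie on both sides of it.

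Probe sets of 1 gene often disagreed. Of the 29 members with several own probe sets, 15 (51.7%) had some above background and some not, 7 had all above and 7 had none above. On the array as a whole, 4246 of 10523 genes (40.3%) had probe sets on both sides of the threshold. Members had more probe sets per gene (median 3 against 2), which gives more chances to split, and the part of this was not tested. The spread over the 3 arrays depended on the level. Member probe sets above background had a median SD of 0.20 on the log2 scale and the others one of 0.70, against 0.15 and 0.87 for all probe sets.

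To show the DNA beside the calls, the 250 bases before a transcription start in RefSeq (GRCh38.p14) were read for the 33 of 43 members that had an entry. For some genes, FAS, BCL2L13, BOK and CASP6 among them, that start lay inside the span of the gene. Starts further upstream were not read. Many genes that are active in most cell types start in stretches rich in the dinucleotide CG, and many tissue-restricted genes do not. A pair of genes above background and a pair not above it are printed here, on the strand of the gene from 5′ to 3′, with each CG in capitals. CYCS, whose product is needed for respiration in most cells, lies at chr7:25125261-25125510 on the minus strand. BCL2L11 lies at chr2:111120664-111120913 on the plus strand. BCL2A1 lies at chr15:79971197-79971446 on the minus strand. FASLG lies at chr1:172658853-172659102 on the plus strand.
CYCS: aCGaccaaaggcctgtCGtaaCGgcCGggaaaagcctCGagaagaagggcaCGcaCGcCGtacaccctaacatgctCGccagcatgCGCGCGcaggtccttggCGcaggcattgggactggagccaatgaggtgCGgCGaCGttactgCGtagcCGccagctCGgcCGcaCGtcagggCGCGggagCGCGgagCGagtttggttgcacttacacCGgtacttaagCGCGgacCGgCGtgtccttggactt
BCL2L11: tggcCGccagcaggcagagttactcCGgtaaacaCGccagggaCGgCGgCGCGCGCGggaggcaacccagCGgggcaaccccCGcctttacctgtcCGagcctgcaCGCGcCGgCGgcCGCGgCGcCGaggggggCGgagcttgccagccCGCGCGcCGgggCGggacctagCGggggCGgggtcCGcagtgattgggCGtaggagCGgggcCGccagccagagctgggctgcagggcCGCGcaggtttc
BCL2A1: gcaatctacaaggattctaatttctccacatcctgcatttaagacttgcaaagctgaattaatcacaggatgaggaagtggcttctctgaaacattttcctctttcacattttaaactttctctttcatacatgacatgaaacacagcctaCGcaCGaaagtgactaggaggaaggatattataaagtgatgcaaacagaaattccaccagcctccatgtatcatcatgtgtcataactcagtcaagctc
FASLG: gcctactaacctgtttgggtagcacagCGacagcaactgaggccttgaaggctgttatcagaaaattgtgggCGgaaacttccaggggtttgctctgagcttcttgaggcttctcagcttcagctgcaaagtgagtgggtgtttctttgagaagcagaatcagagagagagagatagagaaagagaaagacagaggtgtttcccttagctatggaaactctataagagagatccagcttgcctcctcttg

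The stretch of CYCS held 31 CG and that of BCL2L11 held 34, whereas those of BCL2A1 and FASLG held 2 each. The last was the lowest count of any member read, so the printed stretches show a wide contrast and not a typical one. Over the 23 members above background with an entry, the median was 23 CG (range 4 to 38), and over the 7 not above background it was 5 (2 to 26). The same medians were 22 for 8473 genes above background on the whole array and 7 for 6911 genes not above it, so the members followed the array. There were exceptions on both sides. XIAP and TNFRSF1A (4 CG each), BAK1 (5) and CASP8 (6) were above background, and BMF (26), BCL2 (24) and BOK (17) were not.

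Exact matches to 2 motifs were counted on either strand in these stretches. The letters GGGCGG, part of many sites for SP1-type factors, were found in 22 of 33 members (66.7%) and in 42.3% of all 27305 stretches. Among genes measured on the array the share was 56.3%, made up of 69.7% of those above background and 39.8% of the others. The letters TATAAA were found in 3 of 33 members (9.09%), namely BCL2L1, BCL2A1 and RIPK1, and in 11.1% of all stretches. A match to GGGCGG itself holds a CG, so the counts of the motif and of the dinucleotide overlap.

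**Figure D4:**
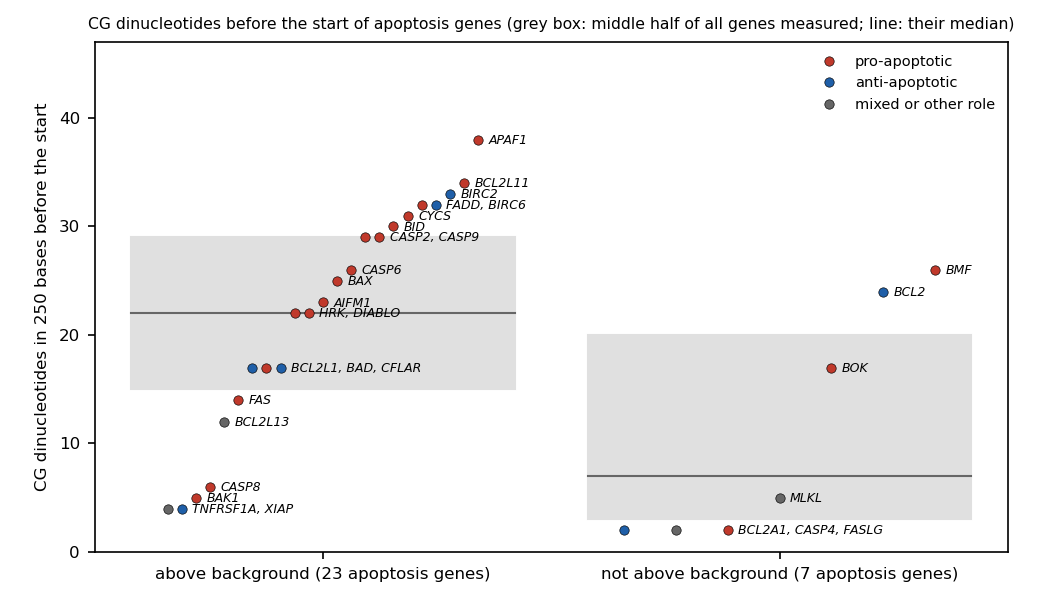
Number of CG dinucleotides in the 250 bases before the start (vertical axis) of each apoptosis gene with a RefSeq entry, for genes above background (left) and not above it (right), coloured by side. The grey boxes span the interquartile range of all genes measured in each class (15 to 29 and 3 to 20 CG), with their medians of 22 and 7 as lines.

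The 24 h culture was then compared with the pair of 48 h cultures, which asks whether transcripts of these genes differed with time after seeding. The 24 h culture also had the highest seeding number, so time, seeding and culture cannot be told apart. The labels do not say that the cultures were independent experiments, and p-values measure only the spread between these samples. All probe sets with a geometric mean signal over the mean threshold of 104 were fitted with limma on log2(signal + 21.4), a scale that understates the change of dim probe sets. With 1 array at 24 h and 1 residual degree of freedom, the lone array was assumed to vary like the 48 h pair. That pair differed in seeding, so the error behind the p-values includes a seeding difference and is not a spread of replicates.

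The fit held 22750 probe sets and called 70 of them at an adjusted p under 0.05 (0.308%). Of these, 53 were higher and 17 were lower at 24 h, and without the mean-variance trend limma called 0, with 1373 at an unadjusted p under 0.05. None of the 83 member probe sets, from 30 genes, was called in this limma fit or under the alternatives tried. At an unadjusted p under 0.05 there were 9 of 83 (10.8%), against 2122 of 22750 (9.33%), a share near the background. The other 10 measured members, 6 of them pro-apoptotic, 1 anti-apoptotic and 3 mixed, were too dim to enter the fit.

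The lowest adjusted p of a member was 0.125, for the TNFRSF10B probe set described above (1126, 1659 and 1139). Its log2 difference was 0.54 (SE 0.14, limma), with the 24 h signal above both 48 h signals. Over the alternatives tried its adjusted p lay between 0.115 and 0.761. The other TNFRSF10B probe sets in the fit had log2 differences of 0.26 and -0.04, so they did not show the same size of difference.

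The XIAP probe sets also differed among themselves. The probe set with the next lowest adjusted p had signals of 829, 600 and 990, a log2 difference of -0.58 (SE 0.18, adjusted p = 0.257, limma). Its other 6 probe sets had differences between -0.33 and 0.21, and the brightest was at 0.21. The largest difference among the brightest probe sets was that of BCL2L1, at a log2 difference of 0.81 (SE 0.38, adjusted p = 0.516, limma), while its other probe sets in the fit stood at 0.40 and -0.63. BAD had a log2 difference of -0.49 (adjusted p = 0.427, limma) and its other probe set one of 0.02.

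Of the 21 members with several probe sets in the fit, 5 (23.8%) had all of them on the same side of 0. Among all genes with several probe sets in the fit, 2264 of 5327 (42.5%) did. A gene with more probe sets has more chances to split. Members had a mean of 3.2 own probe sets per gene, against 2.08 over all genes on the array. The part of this in the shares was not tested. The 4 probe sets of FAS had log2 differences of 0.13 to 0.72 and the 3 of BID differences of -0.35 to -0.11. BCL2 (-0.52 to -0.10), CASP8 (-0.20 to -0.02) and CASP9 (0.0073 to 0.02) had 2 probe sets each on 1 side. None of these passed the test.

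For the comparison of the sides, the brightest probe set of each gene in the fit was taken. The 17 pro-apoptotic genes had a median log2 difference, 24 h minus 48 h, of -0.04, with 7 higher and 10 lower and a range of -0.50 to 0.54. The 9 anti-apoptotic genes had a median of 0.05, with 5 higher and 4 lower and a range of -0.29 to 0.81. The median of all probe sets in the fit was 0.0046. Without the low-seeded 48 h culture the anti-apoptotic median was -0.03, and without the high-seeded 48 h culture it was 0.17. With the mean over a gene's probe sets in place of the brightest, the medians were 0.0059 for the pro-apoptotic and -0.08 for the anti-apoptotic genes, so neither sign was stable.

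Taken array by array, the median deviation of a gene from its own mean over the arrays was 0.01, -0.03 and 0.01 for the pro-apoptotic genes and -0.10, 0.03 and 0.07 for the anti-apoptotic genes, in log2 units. Pro-apoptotic genes stood 0.12 above anti-apoptotic genes in the low-seeded 48 h culture and 0.06 below them in each of the others. No test was run on these medians, since the genes are not replicates of a culture.

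**Figure D5:**
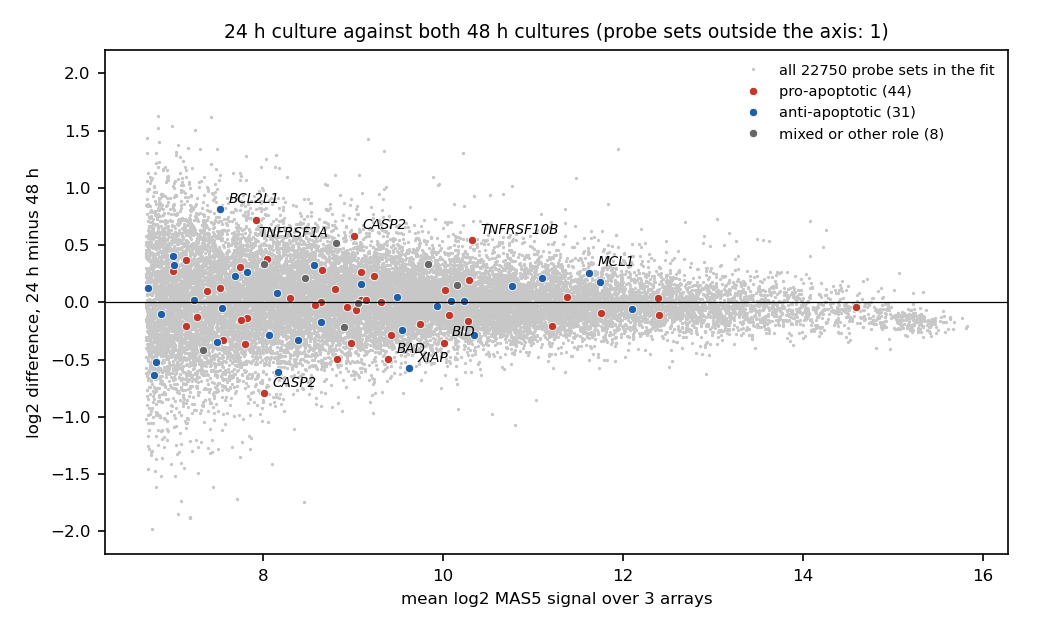
Difference in log2(signal + 21.4) between the 24 h array and the mean of the 48 h pair (vertical axis) against the mean log2 signal over the 3 arrays (horizontal axis) for the 22750 probe sets in the fit (grey) and the 83 of apoptosis genes (coloured by side), with names at the 9 that had an unadjusted p under 0.05. The coloured points lie within the grey cloud on both sides of 0, from -0.79 to 0.81, and 1 grey point lies outside the axis.

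The 48 h cultures, which differed in seeding, were set side by side with no test, since each was a single array. A change past 1.5-fold was found for 9 of 83 member probe sets (10.8%) and for 1930 of 22750 (8.48%), again a share near the background. The fold was taken on signal + 21.4. Of the 9, 7 were higher in the high-seeded culture, and of the 1930 on the array 1207 (62.5%) were. The reference probe sets were also brighter on that array, with a median signal of 24.49 against 20.05, and the part of this in the result was not tested. The 7 higher member probe sets included both BCL2 probe sets in the fit (84.5 against 168, and 101.5 against 167). The rest were 1 each for HRK (101 against 163), BCL2L13 (177 against 319), XIAP (858 against 1370), CFLAR (149 against 301) and TNFRSF10B (377 against 691). The 2 lower ones were for FAS (298 against 137) and BCL2L1 (174 against 99.4). BCL2 was the only member with more than 1 probe set past 1.5-fold in this pair, and its probe sets lay near the threshold.

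The pathway was also read beyond the members, with a list of 49 further genes of apoptosis. Of the 46 with a probe set of their own, 30 (65.2%) were above background, compared with 51.4% of all genes. The first of them in the order of the list were BIRC5 (survivin, which also acts in mitosis; 8288 ± 314, all 4 probe sets above), BIRC7 (148 ± 32.2), NAIP (130 ± 21.3, 1 of 3 probe sets above, a gene with near-identical copies) and PMAIP1 (5768 ± 167), which encodes the BH3-only protein NOXA. The first of the 16 not above background were CASP5 (47.1 ± 8.04), CASP14 (15.8 ± 6.49), BCL2L10 (61.1 ± 43.9) and BCL2L14 (44.9 ± 41.9). In the same limma fit, 56 probe sets of 30 of these genes were tested and none was called, with 7 at an unadjusted p under 0.05 and a lowest adjusted p of 0.384.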

How the data were processed

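RNA of 3 HEK-293T cultures was hybridised to U133 Plus 2.0 arrays. The deposited values are MAS5 signals, an intensity on a linear scale that the authors made per array (GCOS 1.0 in the submitters' processing notes), scaled to a mean of about 500.1 after trimming 2% at each end. The authors' absent/present calls were not used. No value of the arrays was identical between any pair of arrays. Samples were grouped by harvest time and seeding number as the labels give them.

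Genes came from the platform annotation, in which 41097 of 54675 probe sets list 1 gene, 1801 several and 11777 none. All 43 members are named, the 40 with a probe set of their own by the one with the highest mean signal, and of the wider list and the marker lists the smaller side where it had at most 6 genes, otherwise the first 4 in list order. The kidney markers above background are named as well, by their counts of probe sets. The members, their roles and all lists were chosen with earlier results of these data known.

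The background reference was 362 probe sets of 255 genes, made of genes restricted to other tissues and of olfactory and bitter taste receptors. It was not measured in cells that lack a gene, and 2 of its probe sets (TNNT3 and CALCA) were above background. No gene-level test was run on the counts above background. Differences between 24 h and 48 h were fitted with limma 3.58.1 in R 4.3.3 (lmFit, eBayes with a mean-variance trend) and adjusted by Benjamini-Hochberg over all 22750 probe sets, with an adjusted p under 0.05 as the threshold. The number of arrays limits the precision. Tested on simulated data, the detection rule found 12.6% of probe sets placed at the threshold. It found 78.3% of those at 1.5 times and 98.1% of those at 3 times the threshold. In another simulation, the fit recovered 78% of log2 changes of 1 and 99% of those of 2. Each probe set simulated for the fit had the spread typical of its level. Real probe sets vary around that spread, so recovery on the arrays may be lower and was not tested. Alternatives were other thresholds and references, fewer probe sets, other scalings, added values of 16 and 64 and leaving out each array. For the difference between 24 h and 48 h, only the 48 h arrays could be left out. Promoter stretches were read from RefSeq (GRCh38.p14), which may differ from the start used in these cells.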

Additional observations from a re-analysis of the deposited data

Results flagged for a closer look

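A pair of probe sets above background list a member together with other genes and were not used in the comparisons. For BCL2L2, the probe set also lists PABPN1 and the BCL2L2-PABPN1 readthrough gene, and had signals of 8259, 7694 and 7705 in the low-seeded 48 h, 24 h and high-seeded 48 h cultures (mean 7886). For BBC3, which encodes the BH3-only protein PUMA, the probe set also lists MIR3190 and MIR3191, and had signals of 198, 186 and 148 (mean 177.5). Which of the listed genes gave the signal was not tested. The shared probe set of CASP1 and CARD16 had signals of 41.9, 3.61 and 9.61 and was not above background.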

How the results depend on the processing

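With 3 arrays from cultures that differ in seeding and time, genes near the threshold could not be placed firmly. Over 10 alternatives, 376 of 393 calls of single members were kept, 12 were lost and 5 were gained, and 30 of 40 members kept their call wherever a probe set was left. All 5 gained calls were of BCL2 (the 90th percentile, receptors alone as reference, 2 of 3 arrays, and without the low-seeded 48 h or without the 24 h culture). The 99th percentile lost BCL2L1, HRK and RIPK3. Leaving out probe sets that can share sequence left 18 members and 9 pro-apoptotic members above background; BAX, APAF1, DIABLO, AIFM1, CASP6, BIRC6 and TNFRSF1A then had no probe set left, and CASP8, CASP9, CFLAR and FAS lost their call. Asking more than 50% of a gene's probe sets to pass left 4 anti-apoptotic members, without BCL2L1, BCL2L2, CFLAR and TNFRSF10D, and HRK also lost its call. Without the mean-variance trend, limma called 0 probe sets on the whole array, with 1373 at an unadjusted p under 0.05; the cause was not tested. Leaving out each array in turn gave 29 to 30 members, 17 pro-apoptotic, 8 to 9 anti-apoptotic and 10301 to 10612 genes above background. Leaving out each 48 h array in turn gave median differences of -0.0626 to -0.0285 for pro-apoptotic and -0.0341 to 0.1682 for anti-apoptotic genes. The lone 24 h array cannot be left out of that comparison. No paired analysis was possible because the labels give no shared replicate numbers and the 24 h group holds 1 array.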
